A study of Rattus norvegicus with 18 samples.

Results

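Of the 26172 Ensembl genes listed at the 50 M read depth, 63 were expressed in naive L5 DRG and had at least 8-fold more reads after L5 spinal nerve transection (SNT). They were chosen on the deposited normalized counts of the 50 M runs. The mean of the 3 naive libraries had to be 10 or more, the mean of the 3 SNT libraries at least 8 times that, and the lowest SNT library had to lie above the highest naive library. In all, 69 genes met these conditions, and 6 of them were set aside because they have a symbol in the part of the study's symbol list that was used here (Col18a1, Stac2, Tbxas1, Gpnmb, Thbs2 and Postn). Because the SNT against naive difference chose the 63 genes, its size and the calls on these genes are given below as a description only.

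The libraries were poly(A) enriched and came from male Wistar rats. The SNT group had its L5 spinal nerve transected, with the L5 DRG taken 7 days after surgery, and the naive group was left intact. Each of the 3 SNT and 3 naive libraries was made from L5 DRG tissue pooled from several rats, so a library shows the mean of its animals and the whole ganglion with all its cell types. The 3 read depths (50 M, 25 M and 17 M) are separate runs of the same 6 libraries and hence technical replicates. At 50 M, 15000789 to 17480115 reads were counted on exons in SNT and 18588873 to 19031166 in naive libraries. The 12 sensory neuron markers that could be matched, such as Prph and Nefh, and the 6 glial markers, such as Sox10, had reads in every library.

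The DRG holds the cell bodies of sensory neurons, wrapped by satellite glial cells and mixed with Schwann cells, fibroblasts, vessels and resident macrophages. When the peripheral axon is cut, injured neurons switch on transcription factors, neuropeptides and genes linked to axon growth, while macrophages gather around the cell bodies and connective tissue is remodelled. In whole ganglia, a change in the number of cells of a type and a change in the RNA per cell cannot be told apart.

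The deposited tables give identifiers alone. A gene received a name only where its ratio of means matched the fold change of exactly 1 gene in the study's list of strongly changed genes and no other measured gene had that ratio. This gave 11 names, which are therefore inferred, and left 52 genes unnamed. The injury-induced transcription factor Atf3, the neuropeptides Gal (galanin) and Vip (vasoactive intestinal peptide) and the endopeptidase-like enzyme Ecel1 are known from injured neurons, and Reg3b is a secreted lectin that is also made by neurons under injury. Trem2, Clec7a and Lilrb4 encode receptors of macrophages and other myeloid cells, Cxcl14 is a chemokine, and Col7a1 and Cthrc1 belong to the extracellular matrix.

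The sequences before the start sites of the 4 named genes with the largest ratios are shown, since these are the stretches next to the start from which such genes are transcribed. They are 250 bases long, are read 5′ to 3′ on the strand of the gene, and come from RefSeq on build GRCr8, which is not the build to which the reads were aligned. Their positions are chr17:8322900-8323149 on the + strand for Cxcl14, chr1:44470230-44470479 on the + strand for Vip, chr4:112419526-112419775 on the + strand for Reg3b and chr1:210084573-210084822 on the - strand for Gal. Capitals mark matches, on either strand, to 1 of 4 short motifs: AP-1 (TGANTCA), CRE (TGACGTCA), STAT (TTCNNNGAA) and ETS (GAGGAA).
Cxcl14: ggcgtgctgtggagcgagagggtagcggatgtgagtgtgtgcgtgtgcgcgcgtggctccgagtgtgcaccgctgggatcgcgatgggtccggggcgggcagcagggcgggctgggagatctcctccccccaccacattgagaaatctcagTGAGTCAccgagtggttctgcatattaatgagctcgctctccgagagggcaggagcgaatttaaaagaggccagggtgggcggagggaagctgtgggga
Vip: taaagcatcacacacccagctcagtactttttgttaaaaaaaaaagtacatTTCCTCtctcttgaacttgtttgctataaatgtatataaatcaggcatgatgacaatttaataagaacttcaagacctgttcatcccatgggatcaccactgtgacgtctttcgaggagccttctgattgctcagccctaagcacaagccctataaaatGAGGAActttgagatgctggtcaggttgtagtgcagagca
Reg3b: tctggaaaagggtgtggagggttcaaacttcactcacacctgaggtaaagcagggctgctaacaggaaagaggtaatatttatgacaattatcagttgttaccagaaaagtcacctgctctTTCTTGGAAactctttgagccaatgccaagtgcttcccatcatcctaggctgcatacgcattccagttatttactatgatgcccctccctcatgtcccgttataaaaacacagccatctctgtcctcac
Gal: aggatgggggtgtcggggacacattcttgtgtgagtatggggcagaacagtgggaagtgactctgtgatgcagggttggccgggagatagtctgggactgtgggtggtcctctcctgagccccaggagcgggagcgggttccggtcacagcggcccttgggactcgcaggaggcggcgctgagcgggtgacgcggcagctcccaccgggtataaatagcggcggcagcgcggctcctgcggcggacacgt

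Cxcl14 had an AP-1 match (TGAGTCA) that began 99 bases before the start. Vip had ETS matches that began 199 and 40 bases before the start, and Reg3b had a STAT match (TTCTTGGAA) that began 129 bases before it. The Gal sequence had no match to these letters. Windows of 300 bases, which run on to 50 bases after the start, were at hand for 9 of the 11 named genes, all but Atf3 and Cthrc1. In these windows AP-1 letters stood in 2, STAT letters in 1, ETS letters in 3 and CRE letters in 0, and the matches not yet given were ETS in Lilrb4 and AP-1 and ETS in Trem2. Of all 33469 windows of this length, 7.33% held the AP-1 letters, 8.87% STAT, 27.6% ETS and 1.83% CRE. The matches did not overlap each other in these windows, and a match is a run of letters, not evidence that a factor binds.

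Atf3 and Gal had the highest SNT means among the named genes. Atf3 had 217.7, 160.8 and 252.1 normalized counts (read counts divided by the library's size factor) in naive 1 to 3, and 6121, 6999 and 8213 in SNT libraries 1 to 3. The SNT mean was 7111 ± 1051 (SD, n = 3) and the naive mean 210 ± 46.1 (SD, n = 3), a ratio of 33.8. The 3 SNT libraries lay close together, and the lowest was far above the highest naive library. In naive libraries Gal had 116, 93.5 and 105 normalized counts, against 4156, 4668 and 5738 after SNT, a ratio of 46.3. Vip started lower, at 15.8, 8.04 and 8.63 in the naive group, and reached 1172, 1326 and 1992 after SNT, a ratio of 138. In all 3 genes, SNT 1 was the lowest and SNT 3 the highest SNT library.

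Ecel1 had 43.5, 34.2 and 35.5 normalized counts in naive and 958, 968 and 1135 in SNT libraries, a ratio of 27.0. Reg3b had 17.8, 12.1 and 16.3 in naive and 969, 839 and 1008 in SNT libraries, a ratio of 61.0. These 2 genes had the most even SNT libraries of the named genes, with the highest at 1.18 times the lowest for Ecel1 and 1.202 times for Reg3b. Reg3b belongs to a family of similar genes, and reads that map to more than 1 place were discarded, so its level may be understated.

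The genes of myeloid cells had SNT libraries that lay far apart. Trem2, a lipid-sensing receptor of macrophages and microglia, went from 31.7, 23.1 and 60.4 in naive libraries to 399, 1502 and 662 in SNT libraries. Clec7a, a receptor for fungal glucans, had 99.0, 59.3 and 140 in naive and 884, 2627 and 1331 in SNT libraries. Their ratios of means were 22.3 and 16.2, and in both the SNT 2 library was the highest and SNT 1 the lowest. Lilrb4, an inhibitory leukocyte receptor, had 14.8, 7.03 and 27.8 in naive and 68.7, 1144 and 358 in SNT libraries. Its ratio of 31.6 rests largely on SNT 2, and its SNT mean of 523 ± 556 (SD, n = 3) had an SD above the mean. In SNT 1 alone Lilrb4 was at 4.15 times the naive mean, against 69.1 times in SNT 2 and 21.6 times in SNT 3. Its log2 fold change on log2(normalized count + 1) was 4.31, and it was 5.38 without SNT replicate 1 and 3.36 without SNT replicate 2. Lilrb4 also has close relatives in the genome, with which reads may have been lost.

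The matrix genes and the chemokine showed the same order of SNT libraries. Cthrc1, a secreted protein of matrix remodelling, had 66.3, 65.3 and 87.2 normalized counts in naive and 551, 1929 and 1213 in SNT libraries, a ratio of 16.9. Col7a1, the collagen of anchoring fibrils, had 9.90, 12.1 and 14.4 in naive and 248, 525 and 469.1 in SNT libraries, a ratio of 34.2. Cxcl14 had 15.8, 18.1 and 17.3 in naive and 1287, 4388 and 2886 in SNT libraries, and at 167 it had the largest ratio of the 63 genes. The naive libraries of Cxcl14 were close together, whereas its SNT 2 library was 3.41 times SNT 1.

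**Figure D1:**
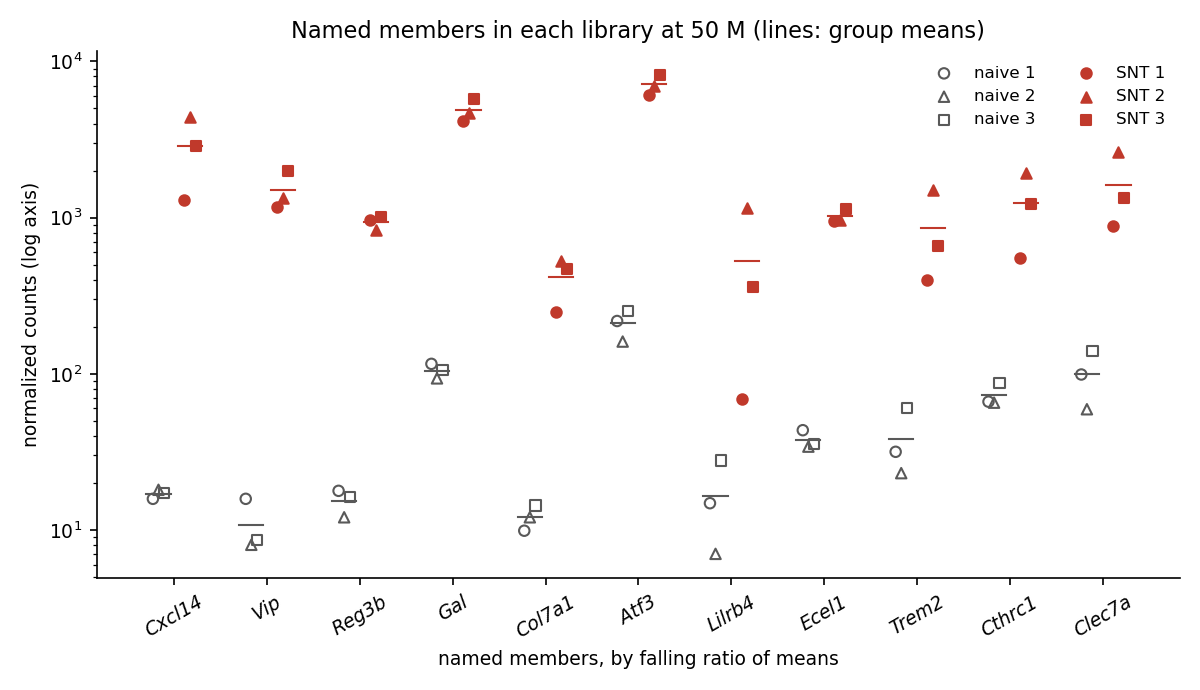
Normalized counts (log axis) of the 11 named genes in each library at 50 M, naive as open grey and SNT as filled red symbols, with circles, triangles and squares for libraries 1, 2 and 3 and lines for group means. For Cxcl14, Col7a1, Lilrb4, Trem2, Cthrc1 and Clec7a the SNT 2 triangle is highest and the SNT 1 circle lowest, whereas for Atf3, Gal, Ecel1 and Reg3b the highest SNT library is less than 1.5 times the lowest.

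Of the 52 genes without a name, ENSRNOG00000004874 had the highest naive mean. It had 507, 484 and 520 normalized counts in naive and 4066, 4917 and 5573 in SNT libraries, a ratio of 9.64, and was the third of the 63 genes by its share of SNT reads. The unnamed gene with the largest ratio was ENSRNOG00000013304, with 20.8, 22.1 and 14.4 in naive and 487, 613 and 626 in SNT libraries, a ratio of 30.1. Both had even SNT libraries with SNT 1 lowest and SNT 3 highest at 50 M, the order seen there in Atf3, Gal, Vip and Ecel1. This order was not kept in every run. SNT 2 was lowest for Ecel1 at 25 M and 17 M, and highest for ENSRNOG00000013304 at 17 M.

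Over all 63 genes, the ratio of means ranged from 8.03 to 167 with a median of 10.9. In 26 genes it was under 10, in 25 from 10 to under 20, in 9 from 20 to under 50 and in 3 (Cxcl14, Vip and Reg3b) 50 or more. Naive means ran from 10.02 to 504 normalized counts (median 35.6, against 222.8 over all 17930 genes tested), and SNT means from 95.4 to 7111 (median 424). The genes were thus mostly low in naive ganglia, with 19 under 20 normalized counts and 12 at 100 or more. The precision of the naive values is limited by the reads behind them, which numbered 3 to 567 per gene and library (median 32). The lowest SNT library was 1.79 to 74.1 times the highest naive library, with a median of 5.95. In limma fits over all genes, all 63 were called higher at an adjusted p under 0.1 at each depth, where 29.2% of all tested genes were called higher at 50 M, 27.7% at 25 M and 26.0% at 17 M. Since the same libraries chose the genes, these calls add nothing to the choice.

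The conditions of the choice have sharp edges in a continuous range. The gene just inside had a ratio of 8.03, with SNT libraries from 185 to 344 and naive libraries from 29.1 to 47.9 normalized counts. The gene just outside had a ratio of 7.99, with SNT libraries from 117 to 224 and naive libraries from 11.1 to 27.8. Below the limit on the naive mean, 157 further genes without a symbol, with a naive mean above 0 and under 10, had a ratio of 8 or more and separate groups. The separation of the groups removed 0 genes that met the other conditions.

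**Figure D2:**
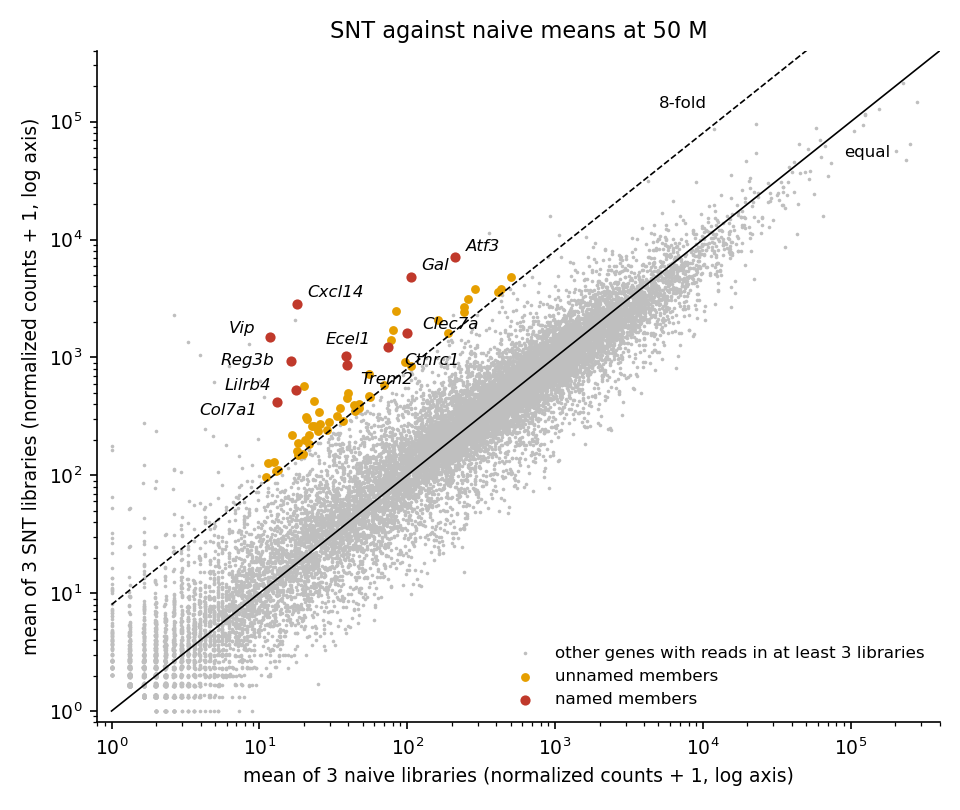
Mean normalized counts + 1 (log axes) in 3 naive against 3 SNT libraries at 50 M, with named members in red, unnamed members in orange and the other tested genes in grey, and with lines at equal means and at 8-fold. The 63 members have naive means of 10.02 to 504, and Cxcl14 and Vip lie farthest from the line of equal means.

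The 63 genes took a small share of each library, and this share was larger in every SNT library than in every naive library, as the choice requires of their sum. They took 0.0225% to 0.0318% of the reads of naive libraries and 0.270%, 0.571% and 0.430% of the reads of SNT 1, SNT 2 and SNT 3 at 50 M. Over the SNT libraries Atf3 held 10.3% of these reads and Gal 7.05%. The share of Atf3 was 13.4% in SNT 1, 7.53% in SNT 2 and 11.6% in SNT 3, so the other genes took more of the sum in SNT 2.

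The SNT libraries differed among themselves, which the choice used only through their mean and the lowest of them. SNT 1 was the lowest SNT library for 60 of the 63 genes and SNT 2 for the remaining 3, and SNT 1 was never the highest. SNT 2 was the highest for 41 genes and SNT 3 for 22. The highest SNT library was 1.03 to 16.7 times the lowest, with a median of 2.25. It was more than 2 times the lowest in 37 genes, which is 58.7% of the 63. For comparison, 587 genes had separate groups, a naive mean of 10 or more and a ratio from 3 to under 8. Among them the median was 1.96 and 46.3% were over 2, SNT 1 was the lowest in 93.0% and SNT 2 the highest in 78.7%. Among 14984 tested genes with a mean of 10 or more, those with reads in every SNT library had a median of 1.31, and 14.2% were over 2. SNT 1 was the lowest in 42.7% of them and the highest in 40.0%, and SNT 2 was the highest in 40.1%. The order with SNT 1 lowest was therefore shared by more weakly rising genes, and no difference between these sets was tested.

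The 63 genes ranged from even to very uneven. In 16 genes the highest SNT library was under 1.5 times the lowest, and SNT 3 was the highest in 14 of these 16. Reg3b, Gal, Atf3 and Ecel1 were among them. In 37 genes it was over 2 times, and SNT 2 was the highest in 34 of these, among them Cxcl14, Col7a1, Lilrb4, Trem2, Cthrc1 and Clec7a. In the remaining 10 genes, Vip among them, it lay from 1.5 to 2 times. Even and uneven genes had alike ranges of naive means, from 12.4 to 504 (median 35.9) and from 11.5 to 411 (median 38.9) normalized counts. The median ratio of SNT to naive means was 10.2 in the even and 12.1 in the uneven genes. Over the 63 genes the log2 spread of the SNT libraries had a Pearson correlation of 0.02 with the log2 naive mean and 0.09 with the log2 ratio. These are correlations across genes that share the same 6 libraries and are given as a description.

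By SNT profile over the 9 SNT runs, the named genes nearest to Atf3 were Gal, Ecel1 and Vip. Their Euclidean distances, taken on the log2 of each run over the mean of its depth, were 0.16, 0.38 and 0.44. Reg3b followed at 0.55 and Col7a1 at 0.91, and the other 5 lay from 1.86 (Clec7a) to 4.81 (Lilrb4).

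**Figure D3:**
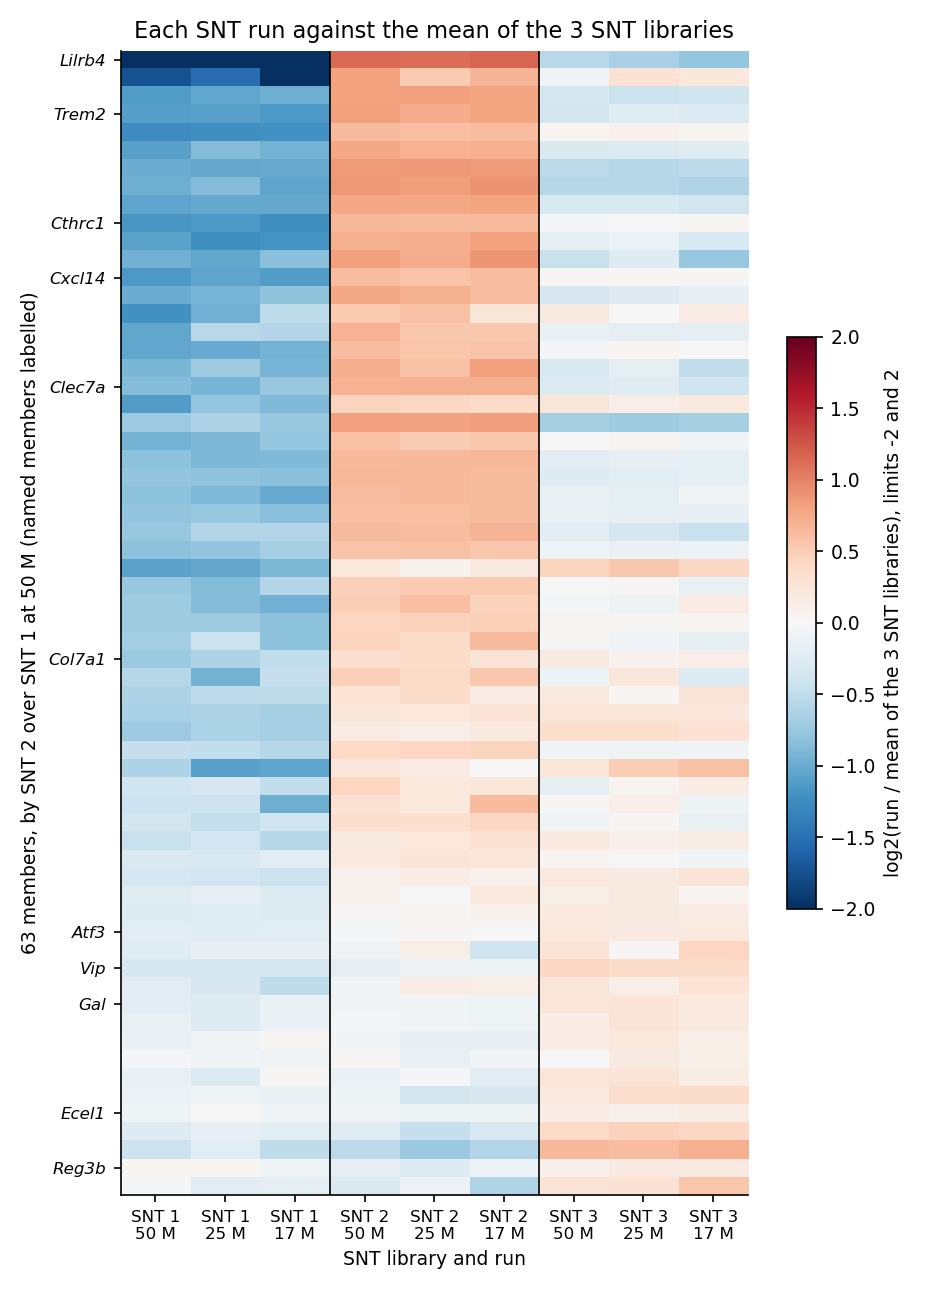
Colour gives log2(run / mean of the 3 SNT libraries at that depth) for each of the 63 members (rows, sorted by SNT 2 over SNT 1 at 50 M) in each SNT library and run (columns), with values beyond -2 and 2 shown at those limits. The upper rows, Lilrb4 to Clec7a among them, are low in SNT 1 and high in SNT 2 in all 3 runs. In the lower rows, from Atf3 to Reg3b, SNT 1 and SNT 2 are close at 50 M. Some of these rows, such as Vip, are higher in SNT 3.

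The profile came back in the other runs of the same libraries. The highest SNT library was the same in all 3 runs for 56 of the 63 genes (88.9%) and the lowest for 54 (85.7%). The log2 ratio of SNT 2 to SNT 1 at 50 M had a Pearson correlation across the 63 genes of 0.97 with that at 25 M and 0.95 with that at 17 M. The differences between SNT libraries were thus present in each run. The labels do not say what else differed between the SNT libraries.

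Most of the 63 genes did not reach 8-fold in SNT 1 alone. Since the choice set only the mean of the 3 SNT libraries at 8 times, a lowest library under that can follow from the limit. Against the naive mean, SNT 1 alone was at 8 times or more in 25 of the 63 genes, SNT 2 in 61 and SNT 3 in 55. The median was 7.23 times in SNT 1, 15.6 in SNT 2 and 11.1 in SNT 3. Atf3 was at 29.1, 33.3 and 39.1 times the naive mean in SNT 1, 2 and 3, and Trem2 at 10.4, 39.1 and 17.2 times. Without SNT replicate 1, 105 genes without a symbol met the same conditions.

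Naive libraries were uneven too. In 42 of the 63 genes naive 3 was the highest naive library, in 12 naive 1 and in 9 naive 2. Among the 37 genes with uneven SNT libraries naive 3 was the highest in 30, and among the 16 even genes in 5. Naive 3 was also the highest in 72.2% of the 587 genes with a ratio from 3 to under 8, and in 33.7% of the tested genes with a mean of 10 or more. In the shallower runs the highest naive library often changed, and it was the same in all 3 runs for 25 of the 63 genes. Across the 63 genes the log2 of SNT 2 over SNT 1 had a Pearson correlation of 0.44 with the log2 of naive 3 over naive 2, with 1 normalized count added to the naive values. These points share libraries and, in the naive group, few reads.

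Gene lists for cell types and processes were matched through the symbol list and the 11 names, which covers only part of each list. The 11 names belong to genes chosen because they rose, so a match through a name could only add a rising gene. Counts that include such genes are partly fixed by the choice. Only these matched genes are described, beside the 35.2% called higher and 36.2% called lower of the 1994 tested genes with a symbol in the part of the list used here. Over all tested genes 29.4% were called lower at 50 M.

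Of 40 regeneration-associated genes 10 were matched, of which 9 rose and 1 fell, and Atf3, Gal and Ecel1 are among them. Of the 7 that are not among the 63 genes, Stmn4, which regulates microtubules, rose by 2.61 ± 0.12 (log2 fold change ± SE, adjusted p = 0.000113 in limma) and Klf6, a growth-linked transcription factor, by 1.06 ± 0.10 (adjusted p = 0.00185). Ngfr, the p75 neurotrophin receptor, fell by 0.68 on the log2 scale (SE 0.13, adjusted p = 0.00636). Arpc1b, Cd44, Lifr and Tuba1a also rose, by 0.46 to 1.84. The 7 genes did not share 1 order of the SNT libraries. SNT 2 was at 0.72 times SNT 1 for Lifr, 0.85 for Ngfr, 1.06 for Stmn4 and from 1.22 to 2.08 times for Klf6, Cd44, Tuba1a and Arpc1b, where Atf3 was at 1.14 times.

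Of 29 macrophage markers 5 were matched and all 5 rose, 2 of them (Trem2 and Clec7a) belonging to the 63 genes. The others were Gpnmb, a lysosomal glycoprotein of phagocytes, Ptprc, the common leukocyte antigen CD45, and Lgals3, a galectin. They rose by 4.75 ± 0.46, 2.05 ± 0.47 and 1.24 ± 0.19 (log2 fold change ± SE), with adjusted p of 0.00177, 0.0118 and 0.00436 in limma. Gpnmb had 386, 315.5 and 370.0 normalized counts in naive and 5770, 21283 and 7155 in SNT libraries, and was kept out of the 63 genes only for having a symbol. The 3 markers had sums of 3098 to 3154 normalized counts in the naive group and of 10812, 30719 and 14261 in SNT 1, 2 and 3, and none was at 0. SNT 2 was 2.84 times SNT 1 and 2.15 times SNT 3 in this sum, 61.3% of which was Gpnmb in SNT libraries. Taken singly, SNT 2 was at 3.69 and 2.97 times SNT 1 and SNT 3 for Gpnmb, 2.79 and 1.76 times for Ptprc, and 1.73 and 1.25 times for Lgals3. Trem2 was at 3.76 and 2.27 times and Clec7a at 2.97 and 1.97 times, above both Ptprc and Lgals3. The part of macrophage RNA in the differences between SNT libraries was not tested. Of the 14 T cell markers 0 were matched.

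Of 50 extracellular matrix genes 21 were matched and all 21 rose, Col7a1 and Cthrc1 among them. The other 19 had log2 fold changes from 0.55 for Sparc to 3.996 for Thbs2, with a median of 1.31. The median over all tested genes was 0.01. Thbs2, Postn and Col18a1, which are among the 19, met the conditions of the choice and were set aside only for having a symbol. They were matched through their symbols, and by these conditions they rose at least 8-fold. Among the remaining genes, the largest log2 fold change was 1.88 and the largest ratio of SNT 2 to SNT 1 was 1.97, both for Nid2. The sum of the 19 was 2.27-fold higher in SNT than in naive libraries. It was 1.60 times as high in SNT 2 as in SNT 1 and 1.09 times as high as in SNT 3, and singly the 19 genes were at 1.35 to 3.32 times in SNT 2 over SNT 1. Col7a1, at 2.11 and 1.12 times, was nearest to this pattern among the named genes, while Cthrc1 was at 3.499 and 1.59 times. In the naive libraries the matrix sum was 1.47 times as high in naive 3 as in naive 2. The part of connective tissue in the library differences was not tested.

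Of 31 sensory neuron markers 12 were matched, of which 10 fell, or 9 with libraries scaled to equal totals, where Runx1 (-0.25, adjusted p = 0.11 in limma) was lost. The other 2 were Prph and Stmn2, with log2 fold changes of -0.28 ± 0.17 and 0.16 ± 0.18 (SE). Calca, the precursor of calcitonin gene-related peptide, fell by 2.37 on the log2 scale (SE 0.61, adjusted p = 0.0182 in limma) and Nefh, a neurofilament subunit, by 2.02 (SE 0.41, adjusted p = 0.00817). The 12 markers had sums of 387558 to 444812 normalized counts in the naive group and of 271589, 142574 and 177535 in SNT 1, 2 and 3. SNT 1, in which 60 of the 63 genes were lowest, thus held the most of this sum among SNT libraries. SNT 2 was at 0.52 times SNT 1 in the sum, and below SNT 1 for each of the 12 markers, from 0.07 to 0.79 times. Atf3, Gal and Vip did not follow this order and were at 1.14, 1.12 and 1.13 times. Ecel1 was at 1.01 times, but at 0.93 and 0.97 times in the 25 M and 17 M runs. Reg3b had SNT 2 below SNT 1, as the markers did, at 0.87 times. In the 25 M and 17 M runs Reg3b was at 0.81 and 0.98 times. Whether neuronal RNA content has a part in the library differences was not tested.

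Of 17 Schwann and satellite glial markers 6 were matched, of which Sox10, a transcription factor of glia, and Erbb3, a neuregulin receptor, rose and Ngfr fell. Sox10 rose by 0.90 ± 0.16 and Erbb3 by 1.09 ± 0.15 (log2 fold change ± SE), with adjusted p of 0.00614 and 0.00369 in limma. The sum of the 6 markers was 0.82 times as high in SNT as in naive libraries, and its largest part was Pmp22, a myelin protein gene with a log2 fold change of -0.30 ± 0.27 (SE). Of 37 lysosomal genes 10 were matched, 5 of which rose, and Lamp2 fell by 0.22 on the log2 scale. With libraries scaled to equal totals 6 rose and the call for Lamp2 was lost (-0.06, adjusted p = 0.54 in limma). Ctsc, a protease of immune cells, was the most changed at 1.63 ± 0.29. The lysosomal sum was 1.34 times as high in SNT 2 as in SNT 1.

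**Figure D4:**
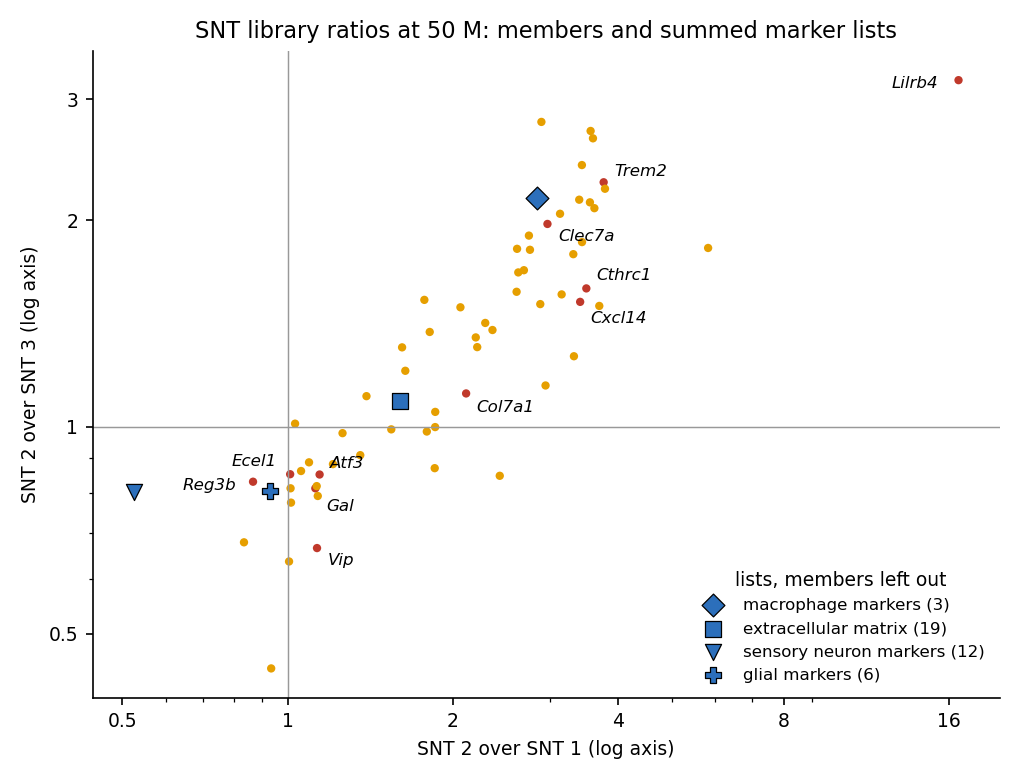
Ratio of SNT 2 to SNT 1 against SNT 2 to SNT 3 (log axes, 50 M) for the 63 members, named in red and unnamed in orange, and for the summed normalized counts of 4 gene lists without the members (blue). The macrophage sum, mostly Gpnmb, lies at 2.84 and 2.15, Reg3b, Ecel1, Atf3, Gal and Vip lie near equal SNT 1 and SNT 2, and the sensory neuron sum lies to the left of all members at 0.52.

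The ratios were close between depths for most of the genes, and for fewer at 17 M than at 25 M. At 25 M the ratio was within 1.2-fold of that at 50 M in 52 of the 63 genes, and at 17 M in 38. The median over the 63 genes was 10.9, 10.7 and 10.9 at the 50 M, 25 M and 17 M depths. Atf3 had ratios of 33.8, 32.7 and 30.1 at 50 M, 25 M and 17 M, and Gal 46.3, 47.1 and 44.2. Vip had ratios of 138, 128 and 281, the last against 3.96, 1.13 and 0 normalized counts in the naive libraries. Cxcl14, likewise low in naive libraries, had 167, 105 and 212, so that the order of these 2 genes changed with the run.

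The groups of all 63 genes were separate at 25 M and at 17 M too, where 29.5% and 27.9% of tested genes had the lowest SNT above the highest naive library, and 30.8% had at 50 M. Separation at 50 M was a condition of the choice and these are runs of the same libraries, so this adds nothing to the choice. Applied anew, the conditions were met by 38 of the 63 genes at 25 M and by 27 at 17 M. Most others missed the limit on the naive mean, which was under 10 in 16 genes at 25 M and 28 at 17 M, since normalized counts are lower in a shallower run. The ratio was under 8 in 11 genes at 25 M and in 14 at 17 M.

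**Figure D5:**
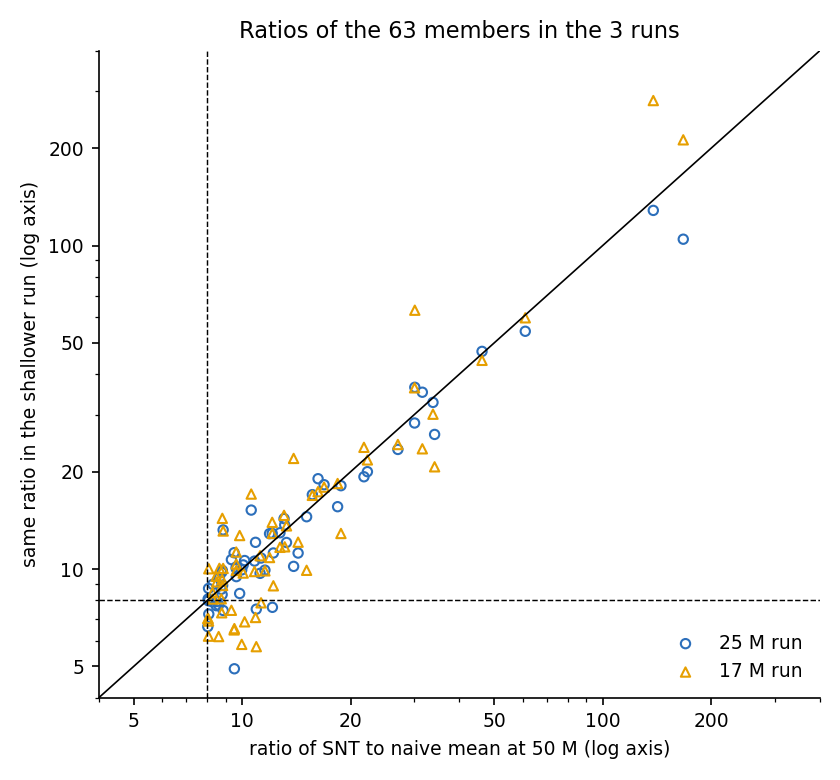
Ratio of the SNT to the naive mean of each of the 63 members at 50 M (x axis) against the same ratio in the 25 M (circles) and 17 M (triangles) runs of the same libraries, on log axes, with the line of equality and dashed lines at a ratio of 8. Most points lie along the line, Vip and Cxcl14 at 17 M reach 281 and 212, and 11 genes at 25 M and 14 at 17 M fall under 8.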

How the data were processed

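RNA was measured in poly(A) libraries of 3 SNT and 3 naive L5 DRG samples. Per the study's methods, 34-base reads were aligned to Rn5 with Bowtie (up to 1 mismatch, reads mapping to several places discarded) and counted over Ensembl exons without regard to strand, so antisense transcripts are counted with the gene they overlap and near-identical paralogs lose reads. The authors divided the counts by DESeq size factors and deposited 1 table of these normalized counts (a signal, not raw counts) per depth. All 18 columns were used, and every value was a whole number of reads (100% within 0.01) times its column's step, so reads could be recovered.

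The 63 genes were selected on the 50 M values, and they and the gene lists were chosen with earlier results of these data known. A gene was named when its ratio lay within 0.06 of the fold change of exactly 1 gene of the study's list and no other gene with reads in at least 3 libraries lay within 0.06 of that value. Of the others, the one with the highest naive mean and the one with the largest ratio are given by identifier. The symbol list was used in part, and the exon arrays and intronic reads were not analysed here. Some glial markers are not reported here.

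Log2(normalized count + 1) was compared with limma 3.58.1 in R 4.3.3 (prior following mean expression, two-sided, Benjamini-Hochberg over all genes with reads in at least 3 of 6 libraries, threshold 0.1), each depth alone and tested on simulated data. Log2 fold changes on this scale understate low genes. With 3 libraries per group an exact permutation test cannot give a two-sided p under 0.1. Alternatives were other pseudocounts, filters, scalings and depths, a replicate block, leaving out each library, edgeR 4.0.16 and DESeq2 1.42.0 on the recovered reads.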

Additional observations from a re-analysis of the deposited data

How the results depend on the processing

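The number of genes that met the conditions moved with the limits, the read depth and the libraries. Against 63 genes, it was 100 with a ratio of at least 7, 37 with at least 10, 33 when the conditions were applied to the 17 M table, 105 without SNT replicate 1, and from 46 to 105 over the fits that each left out 1 library. Libraries scaled to equal totals gave 94 genes, and the same scaling raised the median log2 fold change of all tested genes by 0.15 at 50 M. Under that scaling limma called 0 lysosomal genes lower (0 at an unadjusted p under 0.05), against 1 as reported and 1 with DESeq2, and 9 sensory neuron markers lower, against 10. At 50 M and 25 M all 63 genes were called higher under each alternative run, and at 17 M 62 or 63 were. The same libraries chose the genes, so these counts were largely fixed by the choice. The labels do not say whether replicate numbers pair SNT with naive libraries. The deviations of same-numbered samples from their group means had correlations of 0.04, -0.17 and 0.08 at 50 M. Those of differently numbered samples lay from -0.22 to 0.19. With 3 libraries per group these values cannot decide whether the numbers pair. With the replicate block 63 genes were called higher at each depth. The median log2 ratio was 3.45 and lay between 3.23 and 3.73 when 1 library was left out. The 11 named genes kept their direction and their call in 132 of 132 alternatives, which the choice likewise largely fixed. The lists were refitted without SNT replicate 1 and without SNT replicate 2, a choice made after seeing the data, and their counts changed by at most 1 gene. Depth limits the naive values, with as few as 3 reads for a gene.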
